A study of Mus musculus with 6 samples.

Results

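The imprinted growth genes examined here are 10 genes, Dlk1, Meg3, Rian, Mirg, Peg3, Plagl1, Peg10, Mest, Nnat and H19, chosen by symbol from the 53801 genes of the count files. All 10 were found in the files and all 10 had enough counts to be tested. RNA-seq was performed on maxillary processes of mouse embryos at E12.5, in 3 wild-type (WT) samples and 3 samples of Wnt1cre; Rosa26Dlx2/- embryos (Dlx2OE), all labelled C57BL/6. Dlx2OE embryos carry 1 copy of a Dlx2 coding sequence with a 3xFlag tag at the Rosa26 locus, driven by the CAG promoter behind a stop cassette that Wnt1-driven Cre removes. The transgene is therefore directed to neural crest cells and their descendants and not to surface epithelium, endothelium, blood or skeletal muscle, all of which the dissected tissue also holds. The labels do not say whether WT embryos carried Cre. The paper describes the 3 samples of each genotype as independent biological replicates. The sources do not say how many embryos went into a sample. The p-values therefore measure the spread between these samples, which may be technical in part. The number of littermates used differs between the labels and the methods.

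Imprinted genes are expressed mainly from the chromosome of 1 parent, a choice set by DNA methylation laid down in the egg or sperm. Many of them are highly expressed in embryonic mesenchyme and act on fetal growth, with paternally expressed genes often promoting growth and maternally expressed genes often limiting it. Dlk1, Peg3, Plagl1, Peg10, Mest and Nnat are expressed from the paternal copy, and H19, Meg3, Rian and Mirg, which are non-coding RNAs, from the maternal copy. The counts add both parental copies together, so they measure the level of each RNA and not its imprint.

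Several members are hosts of microRNAs, and these sequences are shown because a count on a host gene is a count on the long RNA that contains them. In the RefSeq table (GRCm38.p6), 20 hairpins and 39 mature microRNAs are listed on the same strand inside the members. The hairpins listed are 14 in Mirg, 3 in Rian and 1 each in Meg3, Mest and H19. In Meg3, miR-1906 (from 109544588) and miR-770 (from 109563710) lie too far apart for 1 hairpin, so its hairpin count is incomplete. The mature sequences of H19, those of Meg3, and the only 2 sequences that share a seed, both in Mirg, are given from 5′ to 3′ with the seed (bases 2 to 8) in capitals.
mmu-miR-675-5p (H19): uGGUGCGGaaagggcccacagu
mmu-miR-675-3p (H19): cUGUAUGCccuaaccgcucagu
mmu-miR-1906 (Meg3): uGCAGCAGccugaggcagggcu
mmu-miR-770-5p (Meg3): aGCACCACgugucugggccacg
mmu-miR-770-3p (Meg3): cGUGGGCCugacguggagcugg
mmu-miR-453 (Mirg): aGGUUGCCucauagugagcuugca
mmu-miR-496a-5p (Mirg): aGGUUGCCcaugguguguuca
The 39 mature sequences have 38 different seeds. The libraries were made from RNA purified on poly-T beads, so mature microRNAs were not measured, and the values below describe the hosts alone.

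Each of the 6 samples had 26155500 to 31308813 read pairs assigned to genes. Levels are given as CPM, a share of the library total on the usual per-megaread scale, after TMM scaling. A level of 3 counts, taken as the smallest detectable, was 0.0955 to 0.111 CPM, far below all 10 members; such floors cover counting error only. Dlx2, the targeted gene, was counted 1255, 1056 and 1409 times in WT. In Dlx2OE the numbers were 3521, 4102 and 3336, and all 6 labels matched. Some library shares did not overlap between genotypes. Read pairs outside annotated genes made up 5.03 to 5.43% in WT and 5.75 to 14.7% in Dlx2OE. Pairs without a unique alignment made up 5.25 to 6.24% in WT and 4.60 to 4.85% in Dlx2OE. Counts on mitochondrially encoded genes made up 3.68 to 5.10% in WT and 3.05 to 3.40% in Dlx2OE. Ambiguous pairs overlapped. The design cannot separate these shares from genotype, and their part in the fold changes was not tested. Beyond this, a pair of libraries stood apart. In Dlx2OE sample 3, 14.7% of read pairs fell outside annotated genes (5.03 to 7.81% in the other 5) and 1.15% of counts fell on the small RNA row Gm23935 (0.0194 to 0.129% in the others). Dlx2OE sample 1 had the lowest summed level of 9 skeletal muscle markers (56.5 CPM, against 115 to 260) and of 6 cartilage markers (262 CPM, against 458 to 784), and the highest of 8 epithelial markers (1708 CPM, against 516 to 1171). The 9 markers of maxillary mesenchyme, such as Prrx1, Pdgfra and Twist1, were all detected, with summed levels of 1512 to 1838 CPM in WT and 1959 to 2364 CPM in Dlx2OE. Of these, 1 passed the test, Twist1, which rose, and DESeq2 called 3 as higher and 1 as lower. Barx1, of the same list, had a log2 fold change of -0.68 without overlap between genotypes (adjusted p = 0.153, edgeR). Of the 8 epithelial markers 2 passed, Krt8 and Krt18, which fell. In 4 of the 8 the log2 fold change was positive, as in Krt5, at 1.91 without overlap (adjusted p = 0.0792, edgeR). A gene passed the test at an adjusted p under 0.05 in the quasi-likelihood test of edgeR, with the adjustment of Benjamini and Hochberg over 17514 genes. Of these genes, 6.45% passed and 8807 had a positive log2 fold change. DESeq2 called 2459 of 33535 genes with a p-value, some of which may lack an adjusted p. The share of all genes that DESeq2 called in each direction is not given here. Its counts on lists below therefore have no matching background, and the shares beside them are those of edgeR.

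Of the 10 imprinted genes, Plagl1 and H19 fell in Dlx2OE and none rose. The 2 of 10 that passed stand beside a background of 6.45% of all tested genes in either direction. The 2 that passed as lower stand beside 3.46% of all tested genes, and the 0 of 10 that passed as higher beside 2.99% (edgeR, with 2 of 10 at an unadjusted p under 0.05, where 29.5% of all genes were, and the same 2 called by DESeq2). Neither reached a log2 fold change of 1 in size, the cut-off in the methods of the study, which 3.12% of all genes passed. Plagl1 and H19 were also the only members whose samples did not overlap between genotypes, beside a background of 34.1% in either direction. As lower they were 2 of 10 beside 17.3%, and as higher 0 of 10 beside 16.7%. The median log2 fold change of the 10 was -0.22, with a range from -0.82 to 0.13, where the median of all tested genes was 0.00. In bulk tissue, a smaller share of the cells that express a gene and less RNA per cell cannot be told apart.

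**Figure D1:**
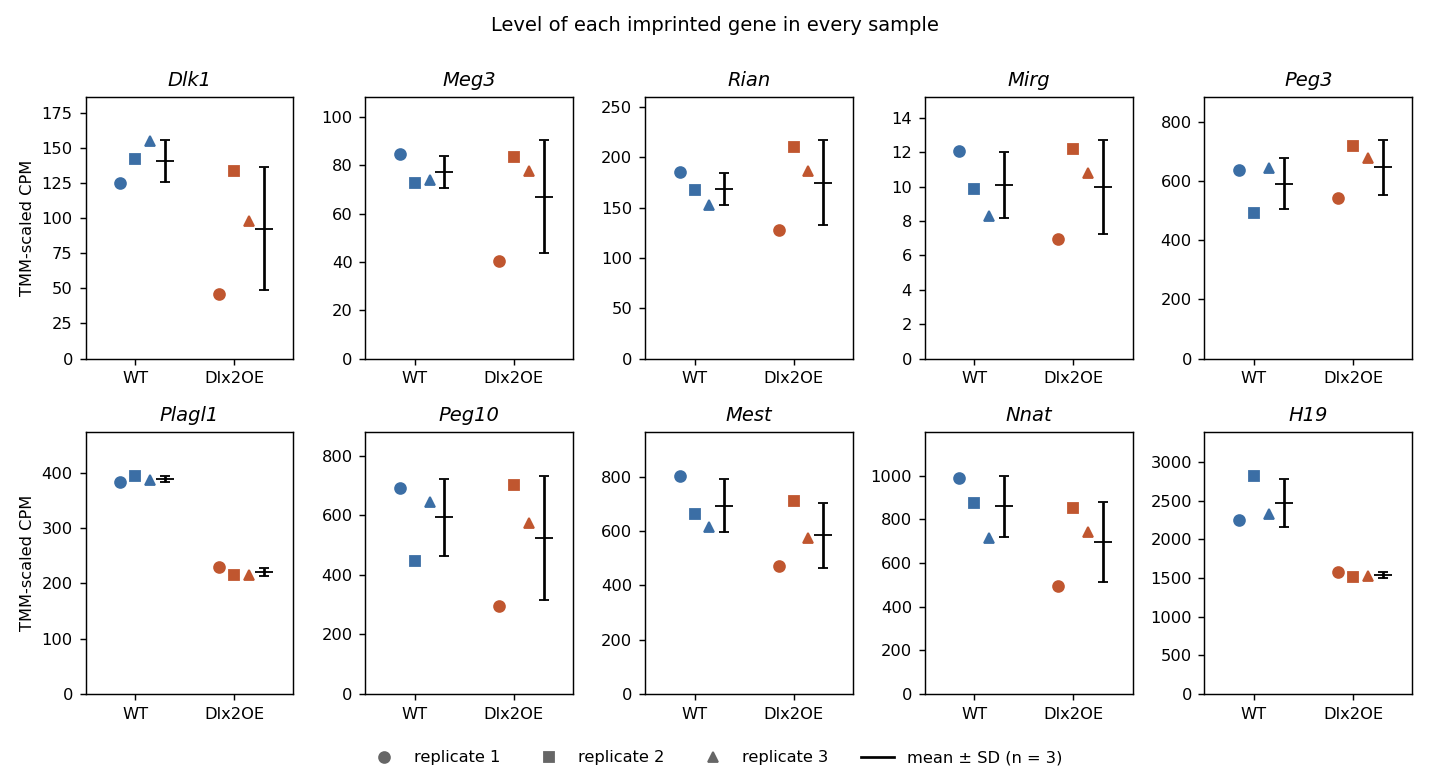
Level of each of the 10 imprinted genes (TMM-scaled CPM, axes from 0) in the 3 WT and 3 Dlx2OE samples, with replicate numbers as symbols and the mean ± SD (n = 3) beside them. Plagl1 and H19 have no overlap between genotypes, while Dlx2OE sample 1 is the lowest of the 6 samples for 7 genes.

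Plagl1 (ENSMUSG00000019817) encodes a zinc finger transcription factor that restrains cell proliferation and is known to regulate other imprinted genes. Its forward-strand gene model runs from 13060504 to 13131694 of chromosome 10 (GRCm38, the build mm10). Its level was 384, 395 and 388 CPM in WT and 229, 216 and 216 CPM in Dlx2OE. All 3 Dlx2OE samples lay far below all WT samples, and within each genotype Plagl1 varied less than any other member in WT and less than all but H19 in Dlx2OE, with coefficients of variation of 1.40% and 3.25%. Plagl1 fell by 0.82 on the log2 scale (standard error, SE, 0.10, 0.566-fold of WT, adjusted p = 0.0086, edgeR), which placed it at rank 54 of all tested genes by p. It was lower with every sample left out in turn, with log2 fold changes from -0.86 to -0.81 and adjusted p from 0.00924 to 0.0466.

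The promoter of Plagl1 is shown because the gene changed and because imprinted promoters are typically rich in CpG, the dinucleotide that carries the methylation. In the RefSeq table (GRCm38.p6), it covers chr10:13090582-13090881 on the forward strand, from 250 bases before to 50 after a RefSeq start that lies inside the gene model given above, with CpG in capitals.
Plagl1: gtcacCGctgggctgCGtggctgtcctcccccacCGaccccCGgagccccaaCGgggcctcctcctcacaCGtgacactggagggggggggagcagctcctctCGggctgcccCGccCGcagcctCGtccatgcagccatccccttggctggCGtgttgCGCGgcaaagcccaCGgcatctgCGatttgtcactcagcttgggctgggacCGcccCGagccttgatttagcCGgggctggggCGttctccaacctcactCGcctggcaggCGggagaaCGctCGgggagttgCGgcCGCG
It holds 26 CpG in 300 bases, and 16.9% of all 32851 promoters of this length in the table hold as many or more, where the median is 7. The table has 11 promoters for 8 of the members, and none for Peg10 or H19. A pair of those of Mest nearly coincides (starts 30737800 and 30737803). The homeodomain core motifs TAATTA and TAATTG, searched on both strands, are in none of the 11, where 5.29% and 8% of all promoters hold them. At such shares, absence from so few promoters does not set the members apart. The motif GGGGCCCC, to which Plagl1 is known to bind, was searched the same way and is in 1 of the 11, that of Peg3, where 1.08% of all promoters hold it. It is printed with the motif in capitals, from chr7:6730370-6730669 on the reverse strand.
Peg3: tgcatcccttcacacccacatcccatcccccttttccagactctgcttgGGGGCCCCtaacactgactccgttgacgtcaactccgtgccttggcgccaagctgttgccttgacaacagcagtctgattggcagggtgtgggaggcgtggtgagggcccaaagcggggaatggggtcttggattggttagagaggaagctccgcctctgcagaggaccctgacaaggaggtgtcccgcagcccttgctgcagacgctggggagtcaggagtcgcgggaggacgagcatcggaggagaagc
A match is only a match of letters, and no binding was measured.

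H19 (ENSMUSG00000000031) is a non-coding RNA of mesodermal and mesenchymal tissues and the host of miR-675, whose arms are printed above. It lies on the reverse strand of chromosome 7 from 142575529 to 142578143, beside the growth factor gene Igf2, with which it shares enhancers. Its level was 2251, 2823 and 2326 CPM in WT and 1578, 1509 and 1527 CPM in Dlx2OE. The Dlx2OE samples lay close together, with a coefficient of variation of 2.34%, and below every WT sample. H19 fell by 0.68 on the log2 scale (SE 0.15, 0.624-fold of WT, adjusted p = 0.0427, edgeR). The direction held in all fits, but the adjusted p rose above 0.05 without WT sample 1 (0.103), WT sample 2 (0.133), Dlx2OE sample 1 (0.0619), Dlx2OE sample 2 (0.158) or Dlx2OE sample 3 (0.12), and was 0.0346 without WT sample 3. It was 0.0506 with library size alone as scaling and 0.0707 once gene length and GC content were corrected for.

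The ratio of H19 to Plagl1 counts was 5.86, 7.15 and 6.00 in WT and 6.91, 6.98 and 7.07 in Dlx2OE, so the genotypes overlapped. For Igf2, the growth factor next to H19, the level was 98.1, 118 and 220 CPM in WT and 138, 106 and 158 CPM in Dlx2OE. Its log2 fold change was -0.12 (SE 0.29, adjusted p = 0.81, edgeR), and it was 0.30 without WT sample 3 and 0.03 without Dlx2OE sample 2. H19 itself shares 9.15% of its exon sequence with another annotated gene. Exons shared with other annotated genes make up 64.5% of the exon sequence of Igf2, and read pairs that fell on both were not counted for either gene, so its level is uncertain. The H19 to Igf2 ratio was 22.9, 23.8 and 10.6 in WT and 11.4, 14.2 and 9.65 in Dlx2OE, with overlap through WT sample 3. These 2 ratios were chosen after the values were seen and were not tested.

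The summed levels of erythroid and macrophage markers were also lower in every Dlx2OE sample. The 6 erythroid markers summed to 3007 to 4005 CPM in WT and 1808 to 2326 CPM in Dlx2OE, and the 6 macrophage markers to 49.3 to 56.1 CPM and 31.6 to 41.5 CPM, without overlap. Among the erythroid markers 2 of 6 passed edgeR's test, Hba-a1 and Alas2, both lower, 5 had an unadjusted p under 0.05, and DESeq2 called 4 as lower. Among the macrophage markers 0 of 6 passed edgeR's test, 3 had an unadjusted p under 0.05, and DESeq2 called 3 as lower. Endothelial markers summed to 262 to 396 CPM in WT and 186 to 291 CPM in Dlx2OE, with overlap, and 1 of 6, Emcn, passed as lower, where DESeq2 called 3. All genes gave 3.46% passing as lower and 29.5% at an unadjusted p under 0.05. No marker of these lists was at 0 in all samples, and their part in the result was not tested.

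The Dlk1-Dio3 domain of chromosome 12 holds 4 of the members in a row on the forward strand. Dlk1 encodes a transmembrane protein of the Notch ligand type that holds back differentiation, of fat and muscle precursors for example, and spans 109452823 to 109463336. Meg3, Rian and Mirg, from 88.2, 151 and 277 kb beyond the Dlk1 start, are non-coding RNAs that are thought to be made largely as 1 long transcription unit from the maternal chromosome. None of the 4 passed the test in either direction.

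Dlk1 (ENSMUSG00000040856) had 125, 142 and 155 CPM in WT and 46.2, 134 and 97.8 CPM in Dlx2OE. Only Dlx2OE sample 2 lay inside the WT range, and sample 1 was the lowest of all. The log2 fold change was -0.60 (SE 0.32, adjusted p = 0.25, edgeR), the largest fall among the members that did not pass, and it was -0.29 without Dlx2OE sample 1 (adjusted p = 0.273) and -0.96 without Dlx2OE sample 2 (adjusted p = 0.142).

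Meg3 (ENSMUSG00000021268, 109541001 to 109571726) had 84.9, 72.6 and 74.1 CPM in WT and 40.4, 83.3 and 77.6 CPM in Dlx2OE. Here Dlx2OE sample 1 alone was low, while the other two lay within the WT range. The log2 fold change was -0.20 (SE 0.24, adjusted p = 0.603, edgeR) and turned to 0.05 without Dlx2OE sample 1, whereas the length and GC correction gave -0.58 (adjusted p = 0.186).

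Rian (ENSMUSG00000097451, 109603940 to 109661716), the host of many small nucleolar RNAs, had 185, 167 and 153 CPM in WT and 128, 210 and 186 CPM in Dlx2OE. Its log2 fold change was 0.05 (SE 0.18, adjusted p = 0.855, edgeR), and -0.21 once gene length and GC content were corrected for. No Dlx2OE sample lay inside the WT range, with sample 1 below it and samples 2 and 3 above it.

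Mirg (ENSMUSG00000097391, 109729764 to 109749460), which holds most of the microRNAs counted above, was the least abundant member, with 12.1, 9.86 and 8.31 CPM in WT and 6.95, 12.2 and 10.8 CPM in Dlx2OE. The order of the 3 Dlx2OE samples was the same for Dlk1, Meg3, Rian and Mirg, and also for Peg3, Peg10, Mest and Nnat on other chromosomes. The log2 fold change of Mirg was -0.02 (SE 0.25, adjusted p = 0.972, edgeR), 0.18 without Dlx2OE sample 1 and -0.18 with the length and GC correction.

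**Figure D2:**
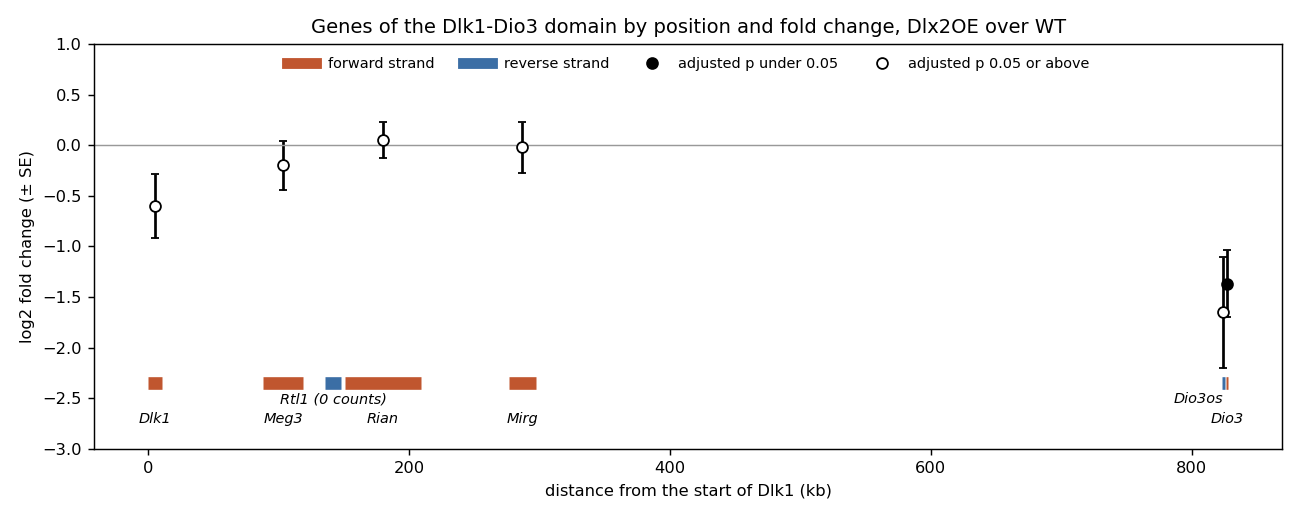
Genes of the Dlk1-Dio3 domain along chromosome 12 (kb from the start of Dlk1, colored by strand) with the log2 fold change of Dlx2OE over WT ± SE. The members lie between -0.60 and 0.05, and Dio3 at the far end lies at -1.37, the only filled point.

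At the far end of the domain, 826 kb beyond the start of Dlk1, lies Dio3, the thyroid hormone-inactivating deiodinase, which is paternally expressed. Its counts were 61, 115 and 128 in WT, against 43, 32 and 38 in Dlx2OE, and the genotypes did not overlap. Dio3 fell by 1.37 on the log2 scale (SE 0.33, adjusted p = 0.0489, edgeR). It did not pass without WT sample 1 (0.0562), WT sample 2 (0.174), WT sample 3 (0.0824), Dlx2OE sample 2 (0.142) or Dlx2OE sample 3 (0.115), and 0.0428 without Dlx2OE sample 1. The neighboring non-coding gene Dio3os, named after its values were seen, was counted 12, 25 and 16 times in WT, against 7, 2 and 7 times in Dlx2OE (log2 fold change -1.65, standard error 0.55, adjusted p = 0.0982, edgeR). Rtl1, a retroelement-derived gene between Meg3 and Rian on the reverse strand, was listed at 0 in all 6 samples.

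Ratios of raw counts within a library do not depend on how libraries are scaled, so 4 ratios within the domain were compared. The Rian to Meg3 ratio was 2.18, 2.30 and 2.06 in WT and 3.17, 2.52 and 2.39 in Dlx2OE. Every Dlx2OE sample was above every WT sample, with a mean log2 ratio of 1.12 ± 0.08 in WT and 1.42 ± 0.21 in Dlx2OE (SD, n = 3 each; exact two-sided permutation test, p = 0.1, adjusted over the 4 ratios p = 0.267). With 3 samples against 3, 0.1 is the smallest p this test can give, so none of the 4 ratios could pass. Without Dlx2OE sample 1 the difference in the log2 Rian to Meg3 ratio was 0.17, against 0.30 with all samples. Meg3 to Dlk1 was 0.681, 0.512 and 0.480 in WT and 0.876, 0.623 and 0.794 in Dlx2OE (exact permutation test, p = 0.2, adjusted p = 0.267), with overlap between WT sample 1 and Dlx2OE sample 2. Mirg to Meg3 was 0.112 to 0.142 in WT and 0.139 to 0.172 in Dlx2OE (exact permutation test, p = 0.2, adjusted p = 0.267). Rian to Mirg was 15.3 to 18.4 in WT and 17.2 to 18.4 in Dlx2OE (exact permutation test, p = 0.4, adjusted p = 0.4), so Rian and Mirg kept the closest ratio of the 4 pairs between genotypes, with a difference of 0.07 on the log2 scale. Of the exon sequence of Meg3, 8.29% is shared with other annotated genes, against 3.42% for Rian and 5.03% for Mirg.

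**Figure D3:**
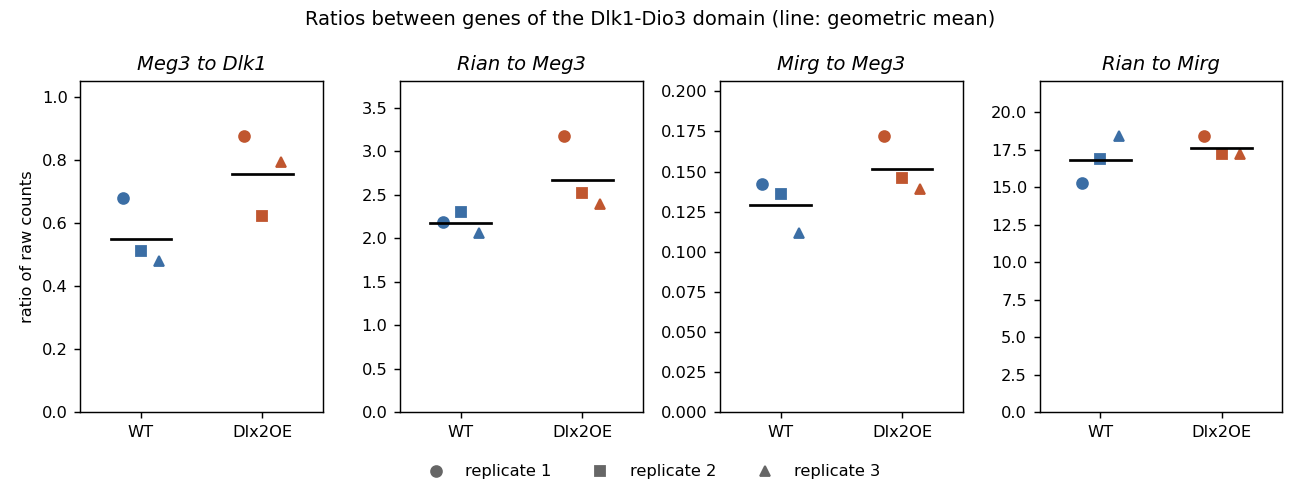
Ratios of raw counts between genes of the Dlk1-Dio3 domain in each sample (axes from 0, line at the geometric mean of 3 samples). Rian to Meg3 is at least 2.39 in all Dlx2OE samples and at most 2.30 in WT, while the other 3 ratios overlap.

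The remaining members are coding genes on chromosomes 2, 6 and 7. Peg3 (ENSMUSG00000002265, chromosome 7, 6703892 to 6730431, reverse strand) encodes a large zinc finger protein, and had 637, 492 and 645 CPM in WT and 543, 718 and 678 CPM in Dlx2OE. It was the member with the highest fold change, a log2 value of 0.13 (SE 0.16, adjusted p = 0.625, edgeR), and -0.12 once gene length and GC content were corrected for. Peg3 thus overlapped between genotypes, in contrast to Plagl1, the other zinc finger gene.

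Peg10 (ENSMUSG00000092035, chromosome 6, 4747306 to 4760517, forward strand) derives from a retroelement and is required in the placenta. Its levels were 692, 447 and 644 CPM in WT and 295, 704 and 575 CPM in Dlx2OE, with the highest coefficient of variation of any member in WT (21.9%). The log2 fold change was -0.18 (SE 0.31, adjusted p = 0.72, edgeR) and turned to 0.10 without Dlx2OE sample 1. Sgce, which lies beside Peg10 and is also paternally expressed, had 53.4, 51.6 and 41.7 CPM in WT and 37.3, 39.6 and 37.0 CPM in Dlx2OE (log2 fold change -0.37, standard error 0.12, adjusted p = 0.0909, edgeR).

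Mest (ENSMUSG00000051855, chromosome 6, 30723547 to 30748465, forward strand) encodes a hydrolase-like protein of the endoplasmic reticulum and is a marker of embryonic mesoderm. It had 805, 663 and 615 CPM in WT and 472, 711 and 574 CPM in Dlx2OE. Dlx2OE sample 2 lay inside the WT range and the others below it, and the log2 fold change was -0.25 (SE 0.18, adjusted p = 0.39, edgeR). It was -0.13 without WT sample 1, -0.12 without Dlx2OE sample 1 and -0.41 without Dlx2OE sample 2. Exons shared with Copg2 make up 23.1% of its exon sequence, and Copg2 itself had a log2 fold change of -0.06.

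Nnat (ENSMUSG00000067786, chromosome 2, 157560078 to 157562522, forward strand) encodes a small membrane protein of the endoplasmic reticulum and lies within an intron of Blcap. It had 991, 875 and 712 CPM in WT and 496, 851 and 741 CPM in Dlx2OE. The genotypes overlapped, at a log2 fold change of -0.30 (SE 0.22, adjusted p = 0.381, edgeR). Without Dlx2OE sample 1 it was -0.12, without WT sample 1 -0.20, without Dlx2OE sample 2 -0.48, and with the length and GC correction -0.16. Nnat is also strongly expressed in neurons. The 10 neuronal markers summed to 81.8 to 356 CPM in WT and 205 to 1575 CPM in Dlx2OE. All 10 had positive log2 fold changes (median 1.87), beside 8807 of all 17514 tested genes. Of the 10, 0 passed edgeR's test, 4 had an unadjusted p under 0.05 and DESeq2 called 1. All genes gave 6.45% passing and 29.5% at an unadjusted p under 0.05. The part of these markers in the Nnat level was not tested.

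The 8 members that did not pass shared 1 sample pattern. Dlx2OE sample 1 was the lowest of the 6 samples for 7 of the 10 members, whereas 17.6% of all tested genes were lowest there. It was also the lowest Dlx2OE sample for 8 of 10, a count for which the share of all genes is not given here. Its level relative to the mean of the other two Dlx2OE samples was 0.399 for Dlk1, 0.461 for Peg10, 0.503 for Meg3, 0.605 for Mirg, 0.623 for Nnat, 0.647 for Rian, 0.734 for Mest and 0.778 for Peg3, but 1.04 for H19 and 1.06 for Plagl1. The same sample had the lowest sums of muscle, cartilage, endothelial (186 CPM, against 251 to 396) glial (93.2 CPM, against 141 to 316) and macrophage markers (31.6 CPM, against 41.2 to 56.1), and their part in this pattern was not tested. Of the 9 muscle markers 0 passed edgeR's test (2 at an unadjusted p under 0.05, 0 called by DESeq2), and of the 5 cartilage markers tested 0 passed (3 at an unadjusted p under 0.05, 2 called by DESeq2). Of the 5 glial markers tested 0 passed (1 at an unadjusted p under 0.05, 0 called by DESeq2), and Foxd3 was listed at 0 throughout. All genes gave 6.45% passing and 29.5% at an unadjusted p under 0.05. Without Dlx2OE sample 1, 5 of the 10 members had a negative log2 fold change, against 8 with all samples, and 1 member passed, Plagl1 (adjusted p = 0.0128, edgeR). Among all 17514 genes tested with all samples, 8707 had a negative value. With all samples and the length and GC correction, 10 of 10 were negative, where the median of all tested genes was -0.03. Only Plagl1 passed there, and Rian (-0.21, adjusted p = 0.437, edgeR) and Peg3 (-0.12, adjusted p = 0.662, edgeR) had changed sign.

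**Figure D4:**
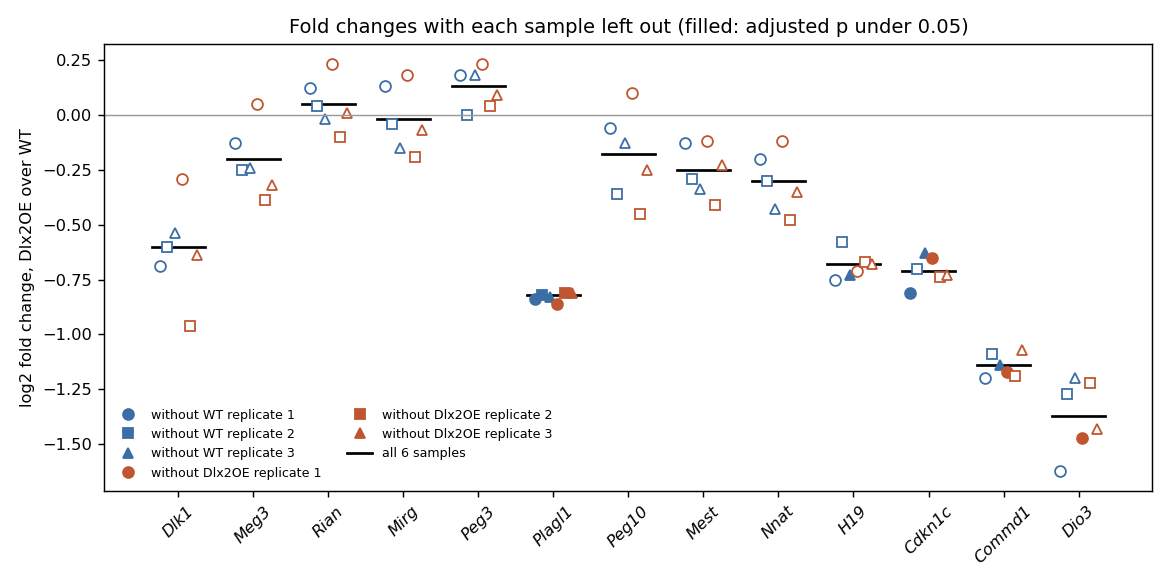
Log2 fold change of Dlx2OE over WT for the 10 members and for Cdkn1c, Commd1 and Dio3 with all samples (line) and with each sample left out (symbols, filled at an adjusted p under 0.05 in edgeR). Plagl1 stays between -0.86 and -0.81 and is filled throughout, while Dlk1 moves between -0.96 and -0.29.

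Per kb of merged exon sequence, H19 was the most abundant member in WT at 1003 ± 126 CPM per kb (SD, n = 3), and in Dlx2OE at 625 ± 14.6. Nnat followed at 470 ± 76.8, Mest at 176 ± 25.1 and Peg10 at 89.2 ± 19.5 CPM per kb in WT. Plagl1 at 49.7 ± 0.698 and Peg3 at 44.4 ± 6.46 CPM per kb were neighbors in WT that did not differ beyond their spread. In Dlx2OE, Plagl1 had 28.2 ± 0.915 and Peg3 48.5 ± 6.87 CPM per kb. Dlk1 had 24.8 ± 2.64, Rian 9.22 ± 0.894, Meg3 4.27 ± 0.371 and Mirg 1.38 ± 0.261 CPM per kb in WT. In Dlx2OE, Peg10 (78.6 ± 31.4) overlapped Peg3, and Dlk1 (16.4 ± 7.77) overlapped Rian (9.57 ± 2.30 CPM per kb). The ranking of the other 8 members by mean level per kb was the same in both genotypes.

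From a list of 43 other imprinted genes, 38 were tested and 3 passed, all lower (Cdkn1c, Commd1 and Dio3), where 3.46% of all genes passed as lower and 6.45% in either direction. At an unadjusted p under 0.05 there were 11 of the 38, beside 29.5% of all genes. Their median log2 fold change was -0.11. By parental origin, 10 of 21 tested paternally expressed genes and 13 of 17 maternally expressed genes had a negative log2 fold change, with 1 and 2 passing as lower. Among all 17514 tested genes, 8707 had a negative value, and a difference by parental origin was not tested. Among the 38, the genotypes did not overlap for 8 lower and 4 higher genes, beside 17.3% and 16.7% of all genes. Kcnq1ot1 was among the higher, with 38.2, 43.5 and 44.6 CPM in WT and 48.6, 69.2 and 92.3 CPM in Dlx2OE (log2 fold change 0.73, adjusted p = 0.073, edgeR). It is annotated as an RNA with 93092 bases of exon sequence. Its 3 Dlx2OE levels had the order of the share of read pairs outside annotated genes (5.75, 7.81 and 14.7%). The part of such reads in the Kcnq1ot1 level was not tested.

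Cdkn1c, a cyclin-dependent kinase inhibitor and maternally expressed growth repressor, had 232, 277 and 304 CPM in WT and 152, 175 and 172 CPM in Dlx2OE. It fell by 0.71 on the log2 scale (SE 0.13, adjusted p = 0.0253, edgeR). The adjusted p was 0.101 without WT sample 2, 0.0772 without Dlx2OE sample 2 and 0.0678 without Dlx2OE sample 3, and 30.7% of its exon sequence is shared with another annotated gene.

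Commd1, a regulator of copper handling and NF-kB whose intron holds the imprinted gene Zrsr1, was counted 182, 219 and 215 times in WT, against 94, 104 and 75 times in Dlx2OE. Commd1 fell by 1.14 on the log2 scale (SE 0.19, adjusted p = 0.0211, edgeR). It did not pass without WT sample 1 (0.0607), WT sample 2 (0.0971), Dlx2OE sample 2 (0.0694) or Dlx2OE sample 3 (0.0672).

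The growth regulators Grb10 and Igf2r were abundant and did not pass. Grb10, an inhibitor of insulin and growth factor signaling, had 1959, 1509 and 1677 CPM in WT and 1429, 1763 and 1521 CPM in Dlx2OE (log2 fold change -0.13, adjusted p = 0.632, edgeR). Igf2r, which clears Igf2, had 226, 203 and 261 CPM in WT and 249, 249 and 254 CPM in Dlx2OE (log2 fold change 0.13, adjusted p = 0.49, edgeR). Both overlapped between genotypes.

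**Figure D5:**
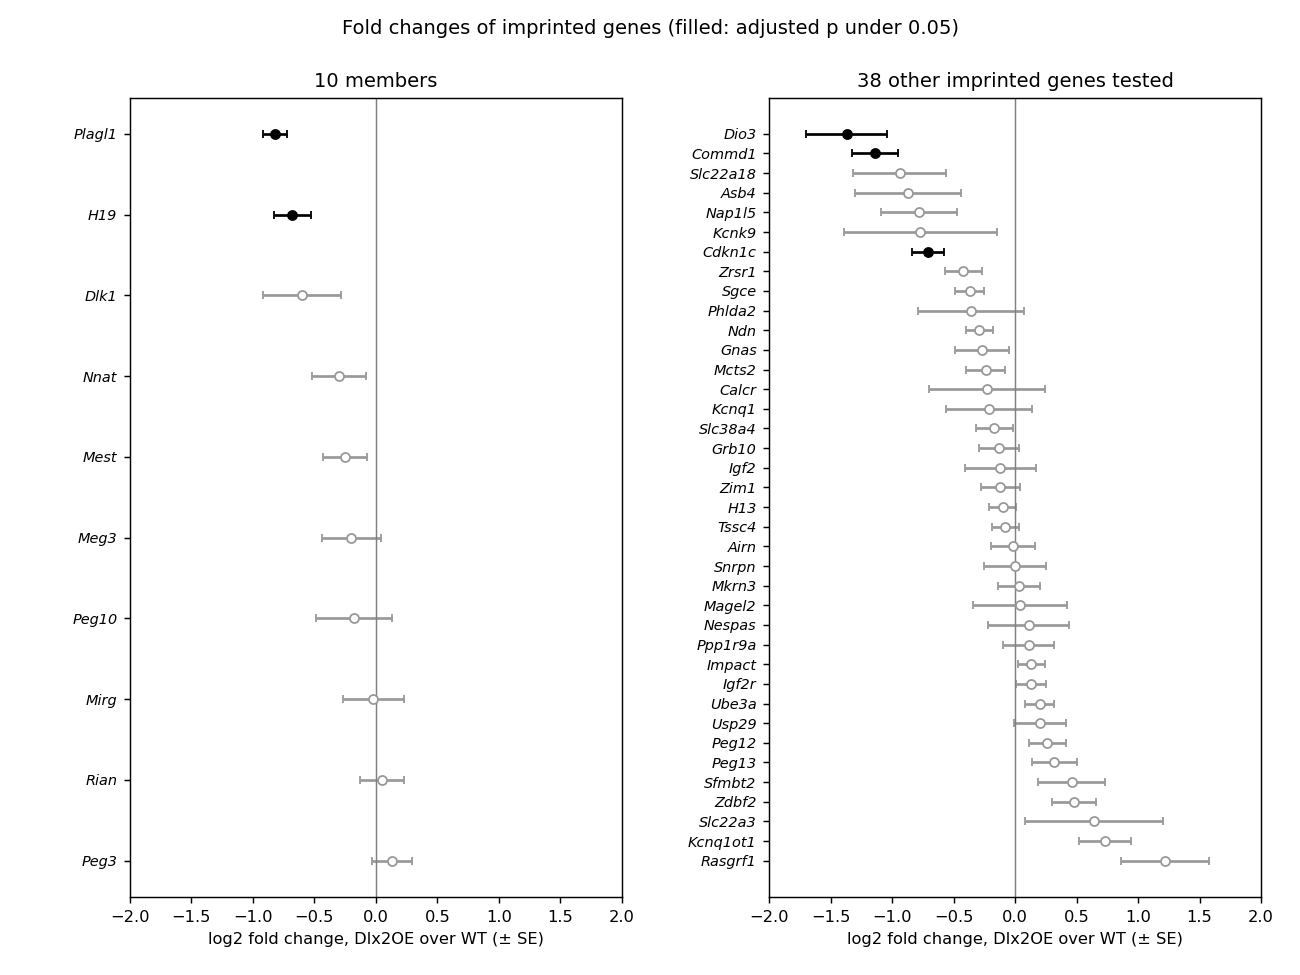
Log2 fold change of Dlx2OE over WT (± SE from edgeR) for the 10 members and for the 38 other imprinted genes tested, ordered by size and filled at an adjusted p under 0.05. Filled points are Plagl1 and H19 among the members and Dio3, Commd1 and Cdkn1c among the others, all below 0.

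Of 12 genes near the members, 11 were tested and 1 passed, Dio3, beside 6.45% of all genes, with 2 at an unadjusted p under 0.05, beside 29.5%. Their median log2 fold change was -0.12. The 9 genes that maintain imprints, among them the DNA methyltransferase Dnmt1 and its partner Uhrf1, all had positive log2 fold changes, from 0.17 to 0.39. Among all 17514 tested genes, 8807 had a positive value. Of the 9 genes, 0 passed edgeR's test (3 at an unadjusted p under 0.05, and 1, Dnmt1, called by DESeq2). Trim28, the corepressor recruited to imprinted regions by Zfp57, had 465, 485 and 622 CPM in WT and 690, 628 and 644 CPM in Dlx2OE (log2 fold change 0.32, standard error 0.15, adjusted p = 0.185, edgeR). For 5 of the 9 genes the samples did not overlap, all higher, beside the background of 16.7%.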

How the data were processed

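The authors prepared poly(A)-selected libraries, by a kit that does not mark strand, from E12.5 maxillary tissue and sequenced 150 bp at both ends. Reads were filtered for quality, mapped to mm10 with STAR 2.7.3a and counted per gene with HTSeq 0.12.4 in union mode, and the raw counts deposited by the authors were used without change. The annotation release and the strand setting are not given in the sources used here, so reads of overlapping genes on opposite strands cannot be told apart. Summary lines for unassigned reads (16.8 to 25.3% of read pairs) were kept out of library sizes and tests.

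Symbols, positions and exon lengths were taken from GENCODE M21 (GRCm38). Of the 53801 identifiers, 53706 were found there. Genes were filtered by filterByExpr with a minimum count of 10, scaled by TMM and tested with edgeR 4.0.16 in R 4.3.3 on genotype alone. Alternatives were DESeq2 1.42.0, other scalings and filters, a replicate block, a loess correction for length and GC content (span 0.5) and removal of each sample. On simulated counts, edgeR recovered 96.0% of 100 genes changed by a log2 value of 1, with 6 false calls among 17260 genes. DESeq2 recovered 95.0%, with 16 false calls among 17514 genes. No member changed by a log2 value of 1, so these rates do not show how often changes like theirs would be found.

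Genes named were all members, listed imprinted, nearby and imprint maintenance genes that passed, Igf2, Cdkn1c, Grb10, Igf2r, Dio3, Rtl1 and Trim28 in any case, Dlx2, and others, markers included, were named after their values were seen. The members and lists were chosen with earlier results of these data known. Figures were drawn with matplotlib 3.10.9.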

Additional observations from a re-analysis of the deposited data

Results flagged for a closer look

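In Dlx2OE sample 3, 14.7% of read pairs lay outside annotated genes, a signal in data that the comparisons do not use and above the 5.03 to 5.43% of the WT samples. The log2 fold changes without this sample were -0.81 for Plagl1 and -0.68 for H19.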

How the results depend on the processing

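Plagl1 was lower with an adjusted p under 0.05 in all 9 alternative fits and all 6 fits that leave out a sample, whereas H19 was lower in all of them but passed in 5 of 9 and 1 of 6. The number of members called lower, 2, was 1 with library size alone, the replicate block, or the length and GC correction with or without the block, and 1 to 2 with a sample left out; no member was called higher in any fit. The other imprinted genes called lower, 3, were 0 with the length and GC correction and the block, and 0 to 4 with a sample left out. Called higher there was 1, Kcnq1ot1, with DESeq2 or without a filter on low counts. With a sample left out there were 0 to 1, Zdbf2 without WT sample 3 and Kcnq1ot1 without Dlx2OE sample 1. Of the imprint maintenance genes, 1 was called by DESeq2. Nearby genes called, 1, were 0 with library size alone, the replicate block, or the length and GC correction with or without it, and 0 to 2 with a sample left out. Of all genes, 2459 were called by DESeq2, 2044 without a filter and 577 with the length and GC correction and block, against 1130, and 79 (without WT sample 2) to 2091 (without WT sample 3) with a sample left out. Reversed values, none of them called, were 0.05 for Meg3 and 0.10 for Peg10 without Dlx2OE sample 1, -0.21 for Rian, -0.12 for Peg3 and -0.07 for Igf2r with the length and GC correction (-0.22, -0.12 and -0.07 with the block), and 0.06 for Mirg with library size alone. With a sample left out, Meg3 ranged from -0.39 to 0.05, Peg10 from -0.45 to 0.10, Rian from -0.10 to 0.23, Mirg from -0.19 to 0.18 and Igf2 from -0.34 to 0.30. The median of all genes was 0.07 with library size alone. For these changes the cause was not tested. The replicate numbers gave correlations of deviations of -0.07, -0.21 and 0.07 for the same-numbered pairs, so these values show no pairing by number. Deviations taken within groups of 3 samples cannot exclude a shared litter or batch. With the block, the adjusted p of H19 was 0.06 and that of Dio3 0.0898 (edgeR). For the 4 ratios the block leaves the mean difference the same by arithmetic. With a sample left out, the difference in the log2 Rian to Meg3 ratio was 0.17 to 0.38. Per kb of the longest transcript, 8 of 10 member levels in WT moved by more than 1 SD, Rian by the highest ratio, from 9.22 to 20.8 CPM per kb.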
